A study of Homo sapiens with 16 samples.

Results

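The mitochondrial ribosomal protein genes were taken as the genes of the 16 count tables whose symbol starts with MRPL or MRPS followed by a number. There were 75 of them, 48 named for the large subunit (MRPL) and 27 for the small subunit (MRPS), among 20314 genes in the U251 tables and 20626 in the U343 tables. Of these, 74 are protein-coding and 1, MRPL42P5, is a pseudogene. U251 and U343 are established human glioblastoma cell lines. Cells of each line were transfected with a miR-137 mimic or with a control mimic at 25 nM, and total RNA was collected after 48 hours. RNASeq libraries were made from total RNA depleted of ribosomal RNA, and RIPSeq libraries from RNA precipitated with antibodies against poly(A)-binding protein (PABP). The 8 groups (line, assay and transfection) held 2 libraries each, so the p-values measure the spread between 2 libraries, which may be technical, since nothing in the labels says that they came from separate cultures.

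Human mitochondria carry their own ribosome, which translates the few messenger RNAs of the mitochondrial genome, all of them for subunits of the oxidative phosphorylation complexes. Its ribosomal RNA is made in the mitochondrion, but its proteins are encoded in the nucleus, made on cytosolic ribosomes and imported. The large subunit holds the peptidyl transferase centre, the exit tunnel and the stalk that recruits translation factors. The small subunit binds the messenger RNA and holds the decoding centre. MRPL and MRPS genes are expressed in nearly all tissues. miR-137 is a microRNA of the nervous system that pairs through its seed with messenger RNAs, which are then less stable or less well translated.

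Between 10156675 and 45134766 reads were counted on genes per library, of which 0.383 to 0.624% fell on the 75 genes. Every protein-coding member had reads in each library, with the lowest value, 132 reads, for MRPL48, and all 75 passed the filter on low counts in every comparison. The pseudogene MRPL42P5 had 7 to 46 reads. Levels are given as CPM, the reads on a gene set against the total of the library and scaled by the TMM method, and they are relative to the other RNAs of a library. A lower level therefore cannot be told apart from a rise of other RNAs, and in bulk RNA fewer cells with the transcript and less transcript per cell cannot be told apart either. Levels are compared between libraries and not between genes, since no transcript lengths were used. Control libraries of both lines carried VIM, an intermediate filament protein abundant in glioma cells, at 5498 to 8678 CPM. GFAP, an astrocyte marker, was at 4384 to 7662 CPM in U343 and at 7.49 to 32.4 CPM in U251. Leukocyte, epithelial, hepatocyte and endothelial markers (PTPRC, EPCAM, ALB and PECAM1) were all below 1 CPM.

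The transfected microRNA is shown first, because every comparison of transfections rests on it. Its mature sequence in RefSeq (GRCh38.p14, chromosome 1, 98046091 to 98046113, minus strand) has 23 bases, with the seed, bases 2 to 8, in capitals:
hsa-miR-137-3p: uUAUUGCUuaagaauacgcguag
Target sites in the members were not searched, since sequences of their untranslated regions were not used here.

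The 75 genes lie on 21 chromosomes, with a head-to-head pair on chromosome 15, MRPL46 and MRPS11, whose hg18 intervals are 51 bases apart. Intervals of 10 members overlap another listed gene, 8 of them on the opposite strand. For these, reads of both genes cannot be told apart where the counting did not use the strand. MRPS6 overlaps SLC5A3 over 32692 bases on the same strand and MRPL43 overlaps SEMA4G over 7794 bases, and their values are uncertain for that reason. Pseudogenes named after a member are annotated for 39 of the 75, with up to 9 for a single gene (MRPS21), and short reads can be split between such copies.

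What the members share beyond their names was examined in their promoters, the window from 250 bases before to 50 bases after each annotated start in RefSeq (GRCh38.p14). Windows were found for 66 of the 75 members. The letters CCGGAAG, the core bound by ETS factors such as GABP, were present on either strand in 29 of these 66 genes (43.9%), against 12.2% of the 27305 genes with a window. The letters AAGATGGC, a motif of YY1, were present in 20 genes (30.3%), against 3.5% of all genes. One or both were found in 41 members (62.1%), against 14.9% of all genes, and both in 8. The NRF1 core CGCATGCG was found in 4.5% of members and 2.5% of all genes, and the E-box CACGTG in 13.6% and 8.8%. The box CCAAT was found in 34.8% of members and 39.7% of all genes. TATAAA was less common among members, in 4.5% against 14%. GABP, NRF1 and YY1 are known regulators of nuclear genes for mitochondrial proteins, and a match is a description of the letters and not of binding.

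Promoters of 4 genes that the results below turn on are shown from 60 bases before to 50 bases after an annotated start, on the strand of the gene, with AAGATGGC and CCGGAAG, or its reverse complement CTTCCGG, in capitals. They are MRPL42 (chr12:93467454-93467563, plus strand), MRPL50 (chr9:101398569-101398678, minus strand), MRPS16 (chr10:73252595-73252704, minus strand) and the last of 3 annotated starts of MRPL18 (chr6:159790407-159790516, plus strand), all in GRCh38.p14:
MRPL42: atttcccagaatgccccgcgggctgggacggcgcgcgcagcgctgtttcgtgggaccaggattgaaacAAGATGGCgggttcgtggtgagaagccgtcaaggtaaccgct
MRPL50: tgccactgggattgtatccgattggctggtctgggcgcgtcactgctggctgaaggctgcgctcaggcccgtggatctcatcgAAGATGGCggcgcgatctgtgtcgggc
MRPS16: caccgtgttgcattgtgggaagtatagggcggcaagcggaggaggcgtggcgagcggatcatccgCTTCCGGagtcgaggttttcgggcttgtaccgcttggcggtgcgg
MRPL18: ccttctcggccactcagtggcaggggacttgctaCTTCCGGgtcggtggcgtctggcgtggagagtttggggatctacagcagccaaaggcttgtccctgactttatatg
The YY1 letters lie 9 bases after the start in MRPL42, which fell after transfection, and 24 bases after it in MRPL50, which rose (values below). The ETS letters begin 6 bases after the start in MRPS16 and 26 bases before it in MRPL18. Neither motif was found in the windows of the other 2 starts of MRPL18, nor in that of MRPL11.

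**Figure D1:**
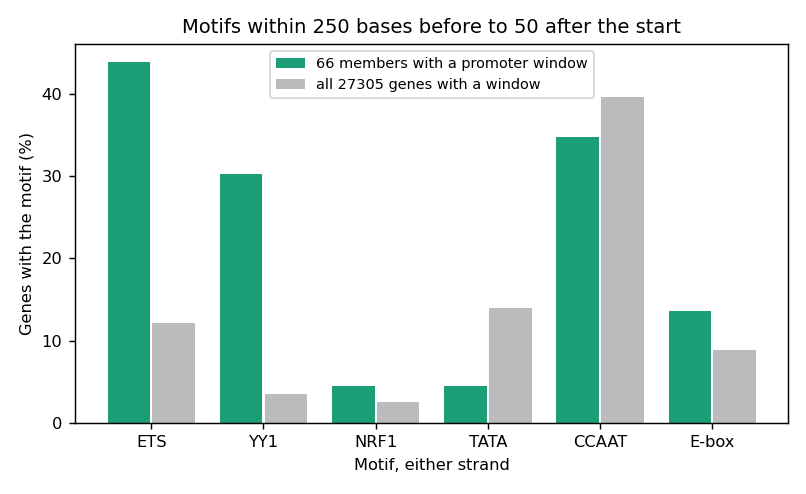
Share of genes whose promoter window holds each motif on either strand, for the 66 members with a window (green) and all 27305 genes with a window (grey). The ETS and YY1 letters stood at 43.9% and 30.3% of members against 12.2% and 3.5% of all genes, while CCAAT stood at 34.8% and 39.7%.

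The first question was how the members responded to miR-137 in each of the 4 experiments. In total RNA of U251 cells, 28 of the 75 were lower after miR-137 transfection and 9 were higher at an edgeR adjusted p under 0.05, where 29.0% of all genes tested were lower and 28.7% higher. The median log2 fold change of the members was −0.22, and that of all genes 0.02. In the 2 control libraries of this experiment 71 of the 75 were higher in replicate 2 than in replicate 1, by a median of 0.21. The 2 miR-137 libraries showed the same direction, with 67 of the 75 higher in replicate 2, by a median of 0.17. In U343 total RNA 61 of the 75 were higher in control replicate 2 (median 0.09) and 19 in miR-137 replicate 2 (median −0.09). These counts are given without those of all genes and are not read as a trait of the members. The part of these shifts in the calls was not tested, and counts with a replicate block are given at the end. In U343 total RNA 15 members were lower (background 11.7%) and 1 was higher (8.31%), with a median of −0.07 against 0.02. The U343 RIPSeq libraries gave the most calls, with 42 members lower (27.8%) and 8 higher (28.5%) and a median of −0.29 against 0.00. In U251 RIPSeq no member passed in either direction in edgeR, where 0.263% and 0.944% of all genes did. In edgeR 11 members had an unadjusted p under 0.05, and 1, MRPL50, passed in DESeq2. Counts at an unadjusted p or from DESeq2, here and below, are given without the share of all genes. They are therefore not read as a trait of the members. As shares, 37.3%, 20.0% and 56.0% of members were lower in U251 RNASeq, U343 RNASeq and U343 RIPSeq, each above the background of its table. The shares that were higher were each below that background. With the replicate block fewer members were lower in U343 RNASeq, and that count is not set against all genes here. In U251 RIPSeq the CPM of the groups did not overlap for 21 members in the lower direction (25.8% of all genes) and for 25 in the higher (29.0%).

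**Figure D2:**
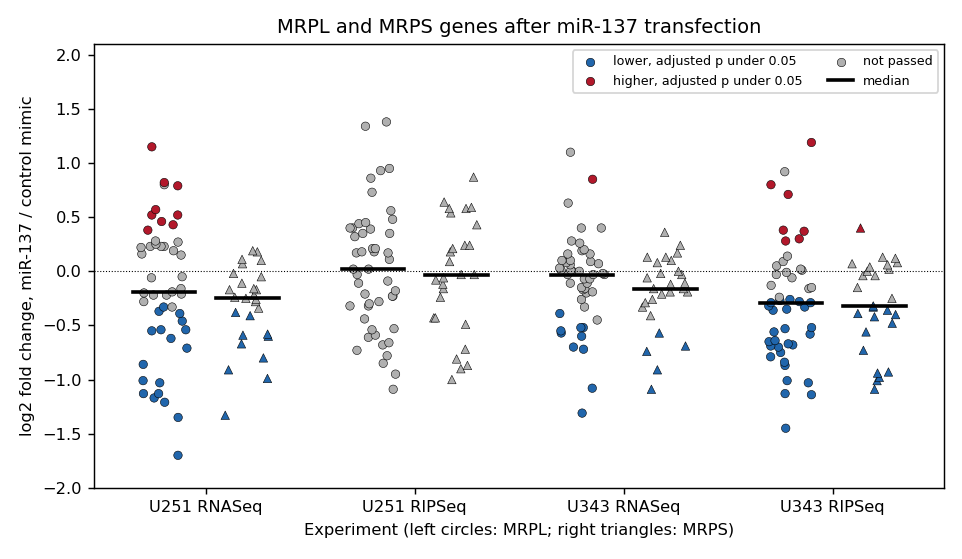
Log2 fold change, miR-137 over control mimic, of each of the 75 genes in the 4 experiments, with MRPL genes as circles and MRPS genes as triangles, blue or red where the edgeR adjusted p was under 0.05, and a bar at each median. Calls below 0 outnumber calls above 0 in U251 RNASeq (28 and 9), U343 RNASeq (15 and 1) and U343 RIPSeq (42 and 8), and U251 RIPSeq has none.

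Both subunits took part. In U251 total RNA 18 of 48 MRPL genes fell and 9 rose, and 10 of 27 MRPS genes fell and none rose. In U343 total RNA 10 MRPL and 5 MRPS genes fell, and in U343 RIPSeq 28 and 14 did. In U343 RIPSeq 7 MRPL genes and 1 MRPS gene, MRPS18A, rose. Over the 4 experiments, 47 members fell at least once and never rose, 10 rose at least once and never fell, and 15 passed in no experiment. Another 3 (MRPL2, MRPL12 and MRPL22) passed in opposite directions in different experiments. These patterns were not counted over all genes and are not read as a trait of the members. Of all genes, 29.0% were lower and 28.7% higher in U251 total RNA alone, and 27.8% and 28.5% in U343 RIPSeq alone. All 15 members that fell in U343 total RNA also fell in U343 RIPSeq, where they made up 35.7% of those that fell. Of all genes, 1764 fell in U343 total RNA, 4130 in U343 RIPSeq and 1623 in both. Most genes that fell in U343 total RNA thus fell in RIPSeq too, as the members did. The 1623 were 11.1% of the genes tested in both, and 7.35% rose in both, among members only MRPL50. The 8 that fell in total RNA of both lines were 28.6% of those in U251 and 53.3% of those in U343. Of all genes, 3780 fell in U251 total RNA, 1764 in U343 total RNA and 975 in both. The 975 were 7.83% of the genes tested in both, and 3.71% rose in both, again only MRPL50 among members.

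The counts of the U251 total RNA experiment moved with the scaling. With upper-quartile normalization, which raised the median of all genes from 0.02 to 0.16, 23 members were lower and 16 higher, and their median was −0.07. A fit of all 8 U251 libraries together shares the estimate of the spread with the RIPSeq libraries. In it 9 members were lower and 2 higher, and MRPL3, MRPL10, MRPL12, MRPL42, MRPL45 and MRPS7 no longer passed. The shares of all genes called in the upper-quartile and joint fits are not given here. Whether these changes were particular to the members cannot be read from the counts. The U343 total RNA calls rested on both control libraries. Without control replicate 1 or without control replicate 2, no gene of the whole table passed, members included. Without miR-137 replicate 1, 21 members were lower and 5 higher (20.3% and 19.3% of all genes), and without replicate 2, 19 and 4 (19.3% and 18.4%). The count of higher members was smaller without U251 RNASeq control replicate 1 and without U343 RIPSeq control replicate 1, and is not set against all genes here.

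MRPL11, MRPL13, MRPL18, MRPL35, MRPL42, MRPS5, MRPS16 and MRPS21 fell in U251 RNASeq, U343 RNASeq and U343 RIPSeq alike. They are 8 of 75 members, where 7.74% of all genes fell in all 3 experiments.

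MRPL18, whose bacterial counterpart binds the shortest ribosomal RNA of the large subunit, had the largest fall in each of the 3 (hg18 chromosome 6, 160131482 to 160139451, plus strand). In U251 total RNA it was at 129 and 148 CPM in the control libraries and at 37.5 and 48.0 CPM after miR-137, a log2 fold change of −1.70 (SE 0.15, edgeR adjusted p = 7.1e-07). In U343 total RNA it was at 26.4 and 26.6 CPM in controls and at 9.92 and 11.4 CPM after miR-137 (−1.31, SE 0.13, adjusted p = 0.00895). The groups did not overlap, and the level was 3.24-fold lower in U251 and 2.48-fold lower in U343. In U343 RIPSeq it went from 40.7 and 38.3 CPM to 14.8 and 14.1 CPM (−1.45, SE 0.09, adjusted p = 1.5e-05). In U251 RIPSeq the controls were at 71.5 and 109.5 CPM and the miR-137 libraries at 44.9 and 49.0 CPM, without overlap, with an adjusted p of 0.205.

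MRPL42, a protein found in mitochondrial and not in bacterial ribosomes, came next in total RNA of U251 (hg18 chromosome 12, 92385401 to 92420563, plus strand). It fell there from 171 and 188 CPM to 67.9 and 72.7 CPM (−1.35, SE 0.13, adjusted p = 1.5e-06). In U343 total RNA it fell from 59.5 and 58.4 CPM to 26.4 and 29.2 CPM (−1.08, SE 0.10, adjusted p = 0.00842), and in U343 RIPSeq from 69.0 and 68.2 CPM to 32.0 and 34.9 CPM (−1.03, SE 0.08, adjusted p = 4.5e-05). In all 3 both miR-137 libraries lay below both controls. In U251 RIPSeq the control libraries stood at 43.8 and 223 CPM, on either side of the miR-137 libraries at 71.5 and 76.8 CPM. There the log2 fold change of −0.85 became 0.85 without control replicate 2. MRPL42 is 1 of the genes with annotated pseudogenes, 6 in number.

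MRPL11, a protein of the region where translation factors are activated (hg18 chromosome 11, 65959126 to 65962886, minus strand), fell in U251 total RNA from 67.3 and 89.6 CPM to 33.8 and 37.9 CPM (−1.13, SE 0.16, adjusted p = 3.9e-05). In U343 RIPSeq it fell from 64.3 and 65.7 CPM to 30.7 and 28.8 CPM (−1.13, SE 0.08, adjusted p = 2.8e-05). The fall in U343 total RNA was smaller, from 53.2 and 61.3 CPM to 40.3 and 37.0 CPM (−0.57, SE 0.12, adjusted p = 0.0383). The groups were apart in each of these, and in U251 RIPSeq too, where controls were at 98.5 and 64.4 CPM and miR-137 libraries at 39.2 and 37.4 CPM (−1.09, adjusted p = 0.170).

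MRPS16, a small-subunit protein whose loss causes a mitochondrial translation defect in humans (hg18 chromosome 10, 74678607 to 74682457, minus strand), fell in U251 total RNA from 181 and 219 CPM to 79.3 and 79.5 CPM (−1.33, SE 0.14, adjusted p = 3.0e-06). It fell from 78.0 and 83.1 CPM to 50.2 and 46.2 CPM in U343 total RNA (−0.74, SE 0.10, adjusted p = 0.0147). In U343 RIPSeq it went from 83.0 and 84.1 CPM to 41.9 and 42.6 CPM (−0.98, SE 0.08, adjusted p = 3.7e-05). The miR-137 libraries of each experiment were close together and well below the controls. In the 3 experiments, the remaining 4 genes, MRPL13, MRPL35, MRPS5 and MRPS21, fell by between 0.52 (MRPL13, U343 RNASeq) and 1.09 (MRPS21, U343 RIPSeq) on the log2 scale. In U251 RIPSeq MRPL13 was at 0.56 and MRPL35 at 0.21, above 0, and MRPS5 at −1.0 and MRPS21 at −0.9. None of these 4 values passed.

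MRPL50, a protein particular to the mitochondrial large subunit, was the 1 member that rose in all 3 experiments, where 3.44% of all genes did (hg18 chromosome 9, 103192070 to 103200740, minus strand). In U251 total RNA it was at 26.1 and 26.4 CPM in controls and at 54.9 and 61.6 CPM after miR-137 (1.15, SE 0.14, adjusted p = 9.9e-06). In U343 total RNA it rose from 11.8 and 11.1 CPM to 20.9 and 20.4 CPM (0.85, SE 0.11, adjusted p = 0.0159), and in U343 RIPSeq from 11.0 and 9.71 CPM to 24.1 and 23.1 CPM (1.19, SE 0.10, adjusted p = 6.7e-05). In U251 RIPSeq controls were at 16.3 and 28.2 CPM and miR-137 libraries at 55.7 and 57.3 CPM (1.34, SE 0.35), with an adjusted p of 0.151. The miR-137 libraries lay above both controls in all 4 experiments, by 1.80-fold to 2.54-fold.

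**Figure D3:**
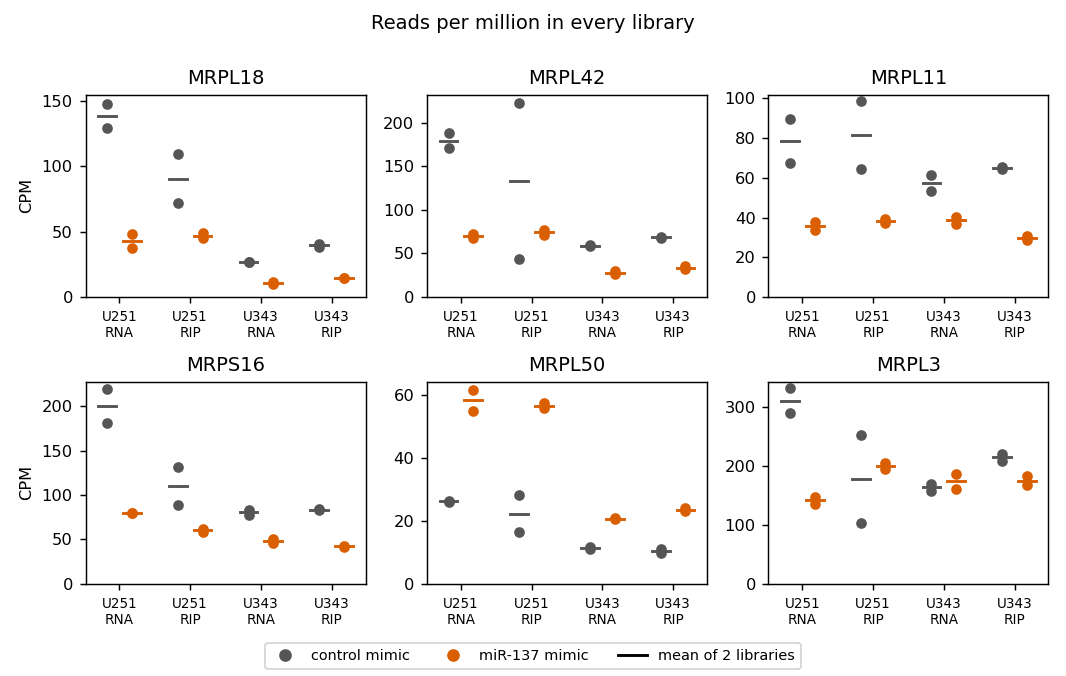
CPM of MRPL18, MRPL42, MRPL11, MRPS16, MRPL50 and MRPL3 in each of the 16 libraries, with control mimics in grey, miR-137 mimics in orange and a line at the mean of 2 libraries. MRPL18 falls and MRPL50 rises without overlap in all 4 experiments, MRPL3 falls mainly in U251 total RNA, and the 2 U251 RIPSeq controls stand far apart for MRPL42 and MRPL3.

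Of the proteins of the stalk, MRPL12 and MRPL10, the first did not move one way. MRPL12 rose in U251 total RNA from 32.5 and 19.2 CPM to 44.3 and 46.8 CPM (0.82, SE 0.20, adjusted p = 0.00284), and fell in U343 RIPSeq from 38.1 and 43.3 CPM to 28.9 and 25.4 CPM (−0.58, SE 0.11, adjusted p = 0.00236). In U343 total RNA it was at 53.6 and 66.2 CPM in controls and at 47.2 and 40.3 CPM after miR-137 (adjusted p = 0.108). MRPL10 rose in U251 total RNA, from 24.5 and 31.8 CPM to 37.2 and 46.3 CPM (0.57, SE 0.16, adjusted p = 0.00891), and in U343 RIPSeq, from 72.4 and 77.9 CPM to 95.2 and 98.4 CPM (0.37, SE 0.08, adjusted p = 0.00648). Its value in U343 total RNA was 0.10 (SE 0.09).

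MRPL2 and MRPL3 lie near the peptidyl transferase centre. MRPL3 was among the most abundant falls in U251 total RNA, from 290 and 332 CPM to 136 and 148 CPM (−1.13, SE 0.13, adjusted p = 1.1e-05). In U343 it was at 158 and 170 CPM in control total RNA and at 187 and 162 CPM after miR-137, with overlapping groups, and in U343 RIPSeq it fell by 0.29 on the log2 scale (SE 0.09, adjusted p = 0.0270). MRPL2 rose by 0.79 (SE 0.17, adjusted p = 0.00148) in U251 total RNA and fell by 0.29 (SE 0.09, adjusted p = 0.0339) in U343 RIPSeq. The 2 genes therefore moved in opposite directions in U251 total RNA. MRPL2 was at −0.20 (SE 0.11, adjusted p = 0.265) in U343 total RNA and at 0.39 (SE 0.25, adjusted p = 0.464) in U251 RIPSeq, neither of which passed.

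Of the proteins near the exit of the tunnel, MRPL45, which binds the ribosome to the inner membrane, fell in U251 total RNA from 43.0 and 49.9 CPM to 29.4 and 34.4 CPM (−0.54, SE 0.14, adjusted p = 0.00577). Its values in U343 were 0.10 (SE 0.08) in total RNA and 0.09 (SE 0.08) in RIPSeq, neither of which passed. MRPL44 rose in U343 RIPSeq from 27.6 and 27.0 CPM to 47.1 and 47.8 CPM (0.80, SE 0.08, adjusted p = 0.00013), and its other values, from 0.22 to 0.40, did not pass. MRPL41 fell in U343 RIPSeq (−0.69, SE 0.08, adjusted p = 0.00032).

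In the small subunit, MRPS12 of the decoding centre passed in no experiment. It was at 41.1 and 50.6 CPM in U251 control total RNA and at 49.1 and 49.5 CPM after miR-137, with U343 values of −0.11 (SE 0.12) and 0.00 (SE 0.09). MRPS7, a protein of the head of the subunit, fell in U251 total RNA (−0.60, SE 0.13, adjusted p = 0.00179) and in U343 RIPSeq (−0.40, SE 0.08, adjusted p = 0.00457). MRPS22, another gene of inherited mitochondrial disease, fell in U343 RIPSeq from 114 and 100.2 CPM to 84.9 and 75.5 CPM (−0.42, SE 0.10, adjusted p = 0.00915). MRPS25 was called in U343 alone, with falls from 75.2 and 82.4 CPM to 36.8 and 37.3 CPM in total RNA (−1.09, SE 0.09, adjusted p = 0.0079) and from 65.6 and 64.7 CPM to 32.2 and 36.3 CPM in RIPSeq (−0.93, SE 0.09, adjusted p = 0.0001). MRPS27 was called in U251 total RNA, where it fell from 237 and 269 CPM to 133 and 135 CPM (−0.91, SE 0.13, adjusted p = 5.3e-05). MRPS30 and MRPS18C passed in no experiment. MRPS18A, which like MRPS30 is placed in the large subunit by structures despite its name, rose in U343 RIPSeq by 0.40 (SE 0.08, adjusted p = 0.00395).

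Other members with large falls were MRPL33 and MRPL37. MRPL33, one of the smallest proteins of the large subunit, fell from 109 and 129.9 CPM to 46.4 and 57.2 CPM in U251 total RNA (−1.21, SE 0.15, adjusted p = 1.3e-05) and from 39.0 and 30.4 CPM to 18.7 and 12.9 CPM in U343 RIPSeq (−1.14, SE 0.19, adjusted p = 0.00142). MRPL37 fell from 306 and 384 CPM to 153 and 154 CPM in U251 total RNA (−1.17, SE 0.14, adjusted p = 1.5e-05). Rises next to that of MRPL50 were MRPL44 and MRPL17 in U343 RIPSeq, the latter from 79.6 and 78.3 CPM to 141 and 118 CPM (0.71, SE 0.10, adjusted p = 0.00075). MRPL14 and MRPL32 rose by between 0.30 and 0.52 on the log2 scale in U251 total RNA and U343 RIPSeq.

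The 2 control libraries of U251 RIPSeq stood apart. Over the members, their median absolute log2 ratio was 0.57, against 0.05 between the 2 miR-137 libraries of that experiment and 0.07 to 0.21 in the other 6 groups. Leaving out control replicate 1 gave 28 members lower and 31 higher (35.3% and 32.8% of all genes), and leaving out control replicate 2 gave 35 and 36 (34.2% and 40.2%), where the lone control is assumed to vary like the other group. For MRPL3 the controls were at 104 and 252 CPM around miR-137 libraries at 195 and 206 CPM, and for MRPL12 at 99.7 and 36.9 CPM around 44.1 and 42.2 CPM. The part of this difference in the absence of calls was otherwise not tested. The log2 fold changes of MRPL3, MRPL12, MRPL45 and MRPS18A changed sign without control replicate 1, and those of MRPL42 and MRPS27 without control replicate 2.

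A second rule, that of the study's methods, compares each control library with each miR-137 library by Fisher's exact test. A gene counts as changed where all 4 of these pairs give an adjusted p below 0.001 with odds ratios above 2. It has no term for replicate error, and in U251 RIPSeq it calls more genes than edgeR. Few members met it. The shares of all genes for this rule are over all 20314 genes of U251 or 20626 of U343, without the filter on low counts. They are therefore lower than they would be over the genes tested in edgeR, all members included. MRPL18 was lower by this rule in U251 RNASeq, where 2.21% of all genes were. MRPL18, MRPL42 and MRPS25 were lower in U343 RNASeq (2.88%), and MRPL11 and MRPL18 in U343 RIPSeq (3.4%). In U251 RIPSeq no member was lower (1.49%). Under the mirrored rule, MRPL50 was higher in U251 RNASeq (6.14%), U251 RIPSeq (3.47%) and U343 RIPSeq (4.83%), and no member was higher in U343 RNASeq (1.51%).

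Whether the response differed between the lines was tested with the interaction of transfection and line. Over the members, the log2 fold changes in total RNA of U251 and U343 had a Pearson correlation of 0.48 and a Spearman correlation of 0.35, and over all genes 0.46 and 0.35. These are descriptions across genes that share libraries, and genes are not independent replicates. In total RNA the interaction passed in 17 members. The response in U343 was lower than in U251 for 5 of them (12.7% of all genes) and higher for 12 (12.5%). The largest difference was MRPL12 (−1.28, SE 0.32, adjusted p = 0.0210), which rose in U251 and was not called in U343 total RNA. MRPL2 (−1.0, SE 0.23, adjusted p = 0.0168) and MRPL16 (−0.94, SE 0.15, adjusted p = 0.00426) followed. MRPL16 was at 40.6 and 41.2 CPM in U251 controls and at 45.5 and 50.5 CPM after miR-137, and at 63.1 and 63.2 CPM against 37.1 and 40.4 CPM in U343, scaled over the 8 total RNA libraries. MRPS25 and MRPL19 were the other 2 whose value was lower in U343. MRPL19 was at 0.23 (SE 0.13, not called) in U251 and fell by 0.39 (SE 0.08, adjusted p = 0.0398) in U343, and MRPS25 was at −0.28 (not called) in U251.

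In the other direction, MRPL3 had the largest interaction (1.22, SE 0.19, adjusted p = 0.00375), with its fall in U251 and overlapping groups in U343. MRPL40 (1.13, SE 0.18, adjusted p = 0.00403) was at 67.9 and 81.7 CPM in U251 controls and at 43.6 and 38.8 CPM after miR-137, and at 27.8 and 29.5 CPM against 35.7 and 33.6 CPM in U343. MRPL33 (1.05, SE 0.20), MRPS27 (1.00, SE 0.16) and MRPS10 (0.97, SE 0.16) were next, and MRPL30, MRPL37, MRPL23, MRPS15, MRPL45, MRPL9 and MRPS16 completed the 12. The counts of lower and of higher members both moved when a single library was left out. Such fits rest on 1 library in a group. Their counts are not set against all genes here and are not read as a trait of the members. The cDNA was made with different kits in U251 and U343, so the line and the kit cannot be told apart.

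**Figure D4:**
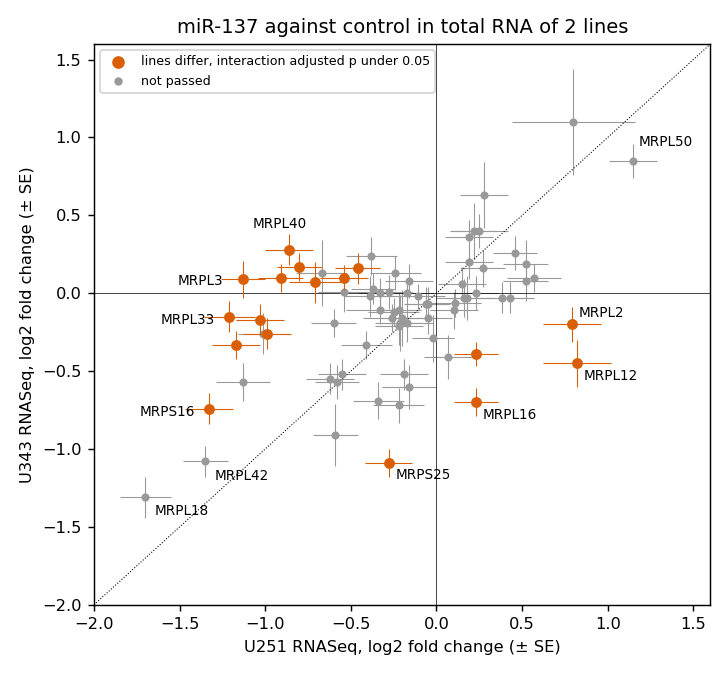
Log2 fold change of each member in total RNA, miR-137 over control mimic, in U251 (horizontal) and U343 (vertical) with SE bars, and the dotted line of equal response. The 17 genes in orange passed the interaction test, 12 of them above the line, such as MRPL3, and 5 below it, such as MRPL12, while MRPL18, MRPL42 and MRPL50 moved the same way in both lines.

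In RIPSeq no member passed the interaction with line, where 1.22% of all genes were lower and 2.06% higher. In edgeR 8 had an unadjusted p under 0.05, and in DESeq2 2 passed, MRPL15 and MRPL48. This count rested on the U251 controls, since 31 members were lower and 3 higher without U251 control replicate 1 (14.9% and 18.8% of all genes), and 32 and 11 without replicate 2 (26.9% and 26.0%).

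Whether miR-137 changed PABP-bound RNA and total RNA unequally was tested with the interaction of transfection and assay. In U343 no member passed (0% of all genes lower and 0.00649% higher). An unadjusted p under 0.05 was found for 21, and 56 of 75 values were below 0. The shares of all genes for these 2 counts are not given here, so they do not set the members apart. The largest were MRPL33 (−0.99, SE 0.27) and MRPL52 (−0.86, SE 0.15), each with an adjusted p of 0.196. In DESeq2 3 passed, MRPL24, MRPL33 and MRPL52. Without miR-137 RNASeq replicate 2, 15 members were lower and 2 higher in edgeR (9.45% and 10.4% of all genes). In U251 no member passed (0.0281% and 0.106% of all genes), 7 had an unadjusted p under 0.05, none passed in DESeq2, and without RIPSeq control replicate 2 there were 14 lower and 33 higher (25.7% and 32.4% of all genes). Without RIPSeq control replicate 1 there were 0 and 17 (8.53% and 11.6%).

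The PABP-bound level relative to total RNA was compared in the control libraries, which are also the controls of the transfection comparisons. The series holds no library of a precipitation without the PABP antibodies. Binding to PABP and unspecific recovery in the precipitation therefore cannot be told apart. In U343, 37 of 75 members were higher in RIPSeq than in RNASeq, where 24.4% of all genes were, and 10 were lower (24.2%). The median log2 ratio was 0.24, against −0.02 for all genes. Of the large subunit genes 27 of 48 were higher and 5 lower, and of the small subunit genes 10 of 27 were higher and 5 lower. Among those that passed, the rise was largest for MRPL32, at 35.2 and 37.4 CPM in total RNA and at 80.5 and 71.0 CPM in RIPSeq (1.06, SE 0.09, adjusted p = 0.00011). MRPL40 followed, at 26.1 and 27.8 CPM against 56.6 and 55.2 CPM (1.05, SE 0.08, adjusted p = 6.9e-05), and MRPS15, at 84.4 and 92.4 CPM against 166 and 168 CPM (0.91, SE 0.08, adjusted p = 0.00013). The groups were well apart for each.

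MRPL18 was also higher in PABP-bound RNA of U343 (0.68, SE 0.08, adjusted p = 0.00044), as was MRPL3 (0.50, SE 0.08, adjusted p = 0.00177), whereas MRPL50 was at 11.5 and 10.8 CPM against 11.4 and 10.1 CPM (−0.05, SE 0.11). The largest falls were MRPL33, at 69.1 and 76.3 CPM in total RNA against 40.7 and 31.7 CPM in RIPSeq (−1.0, SE 0.12, adjusted p = 0.00055), MRPL20 (−0.68, SE 0.08, adjusted p = 0.00036) and MRPL52 (−0.58, SE 0.09, adjusted p = 0.00128). The stalk gene MRPL12 and the decoding centre gene MRPS12 were both lower, by 0.45 on the log2 scale. The count of lower members was smaller without RNASeq control replicate 2 and without RIPSeq control replicate 1, and is not set against all genes here. In U251 1 member, MRPL43, was higher (1.35, SE 0.32, adjusted p = 0.0419) and none was lower, where 7.87% and 6.14% of all genes were, and 13 had an unadjusted p under 0.05. Its reads may include those of the overlapping SEMA4G. In DESeq2 1 member was lower and 4 were higher. With either of the U251 RIPSeq controls left out, 13 members were lower and 19 higher without replicate 1 (27.0% and 28.0% of all genes), and 24 and 29 without replicate 2 (37.1% and 38.8%).

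**Figure D5:**
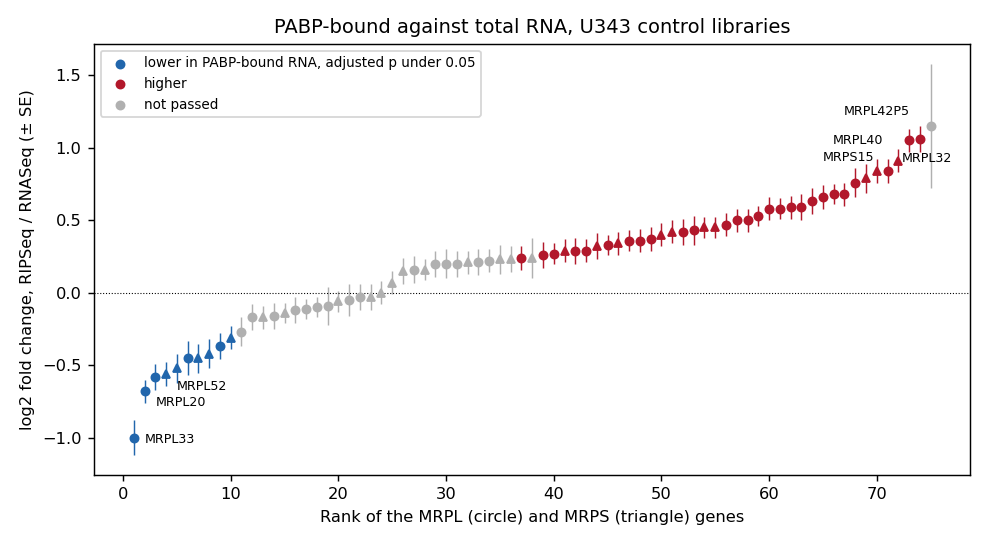
Log2 ratio of RIPSeq to RNASeq in the U343 control libraries for the 75 genes in rank order with SE bars, MRPL genes as circles and MRPS genes as triangles. Of these, 37 are higher in PABP-bound RNA (red) and 10 lower (blue), from MRPL33 at −1.0 to MRPL32 at 1.06, and the pseudogene MRPL42P5 at the far right did not pass.

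The lines were compared at baseline in total RNA of control transfections, a contrast in which the cell line and the cDNA kit cannot be told apart. In U343, 41 members were lower than in U251 (39.9% of all genes) and 23 were higher (44.9%), with a median of −0.32 against 0.10 for all genes. MRPL18 was at 123 and 140.0 CPM in U251 and at 26.0 and 26.3 CPM in U343 (−2.33, SE 0.10, adjusted p = 6.6e-08), and MRPS21 at 68.7 and 76.8 CPM against 13.2 and 17.1 CPM (−2.27, SE 0.14, adjusted p = 4.9e-07). MRPL37 was lower in U343 as well (−1.58, SE 0.12, adjusted p = 2.3e-06). The lowest ratio of all, −2.64 for the pseudogene MRPL42P5, rested on levels of 0.975 and 1.68 CPM against 0.235 and 0.183 CPM.

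On the other side, MRPL34 was at 20.0 and 24.1 CPM in U251 and at 63.5 and 72.5 CPM in U343 (1.62, SE 0.12, adjusted p = 2.0e-06). MRPL12 (1.27, SE 0.21, adjusted p = 0.00043) and MRPL10 (1.21, SE 0.12, adjusted p = 1.6e-05), the pair of the stalk, were both higher in U343. MRPS6 had the highest ratio (1.80, SE 0.09, adjusted p = 1.5e-07), with reads that cannot be assigned between it and SLC5A3. MRPL50 was lower in U343, at 11.7 and 11.0 CPM against 24.9 and 25.0 CPM (−1.14, SE 0.12, adjusted p = 1.7e-05).

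Genes that act with the mitochondrial ribosome were read from fixed lists. Of the translation factors, 7 of 10 tested were lower and 1, GFM1, was higher after miR-137 in U251 total RNA (29.0% of all genes lower and 28.7% higher). In U343, 3 of 11 were lower in total RNA (11.7% of all genes) and 8 of 11 in RIPSeq (27.8%), and none was higher (8.31% and 28.5%). With so few genes in a list, these and the counts of the lists that follow are descriptions, to be read against the same shares of all genes. MTRF1L, a release factor, MTIF2, which places the initiator transfer RNA, and MRRF, which recycles ribosomes, were lower in all 3, by 0.77, 0.92 and 0.67 on the log2 scale in U251 total RNA and by 1.08, 0.66 and 0.63 in U343 RIPSeq. TUFM, the elongation factor, fell from 277 ± 34.9 to 178 ± 16.1 CPM (SD, n = 2) in U251 total RNA. In U251 RIPSeq none of the listed genes passed.

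Of the 7 mitoribosomal proteins under other symbols, 1 was lower (CHCHD1) and 1 higher (DAP3) in U251 total RNA, none passed in U343 total RNA, and 5 were lower and 1 higher in U343 RIPSeq (27.8% and 28.5% of all genes). The list of assembly and ribosomal RNA modification genes held 16. In U251 total RNA 1 was lower and 5 were higher, among them TFB1M, which methylates the small ribosomal RNA (0.79, SE 0.14, adjusted p = 0.00028). In U343 2 were lower in total RNA, and 6 were lower and 4 higher in RIPSeq, or 37.5% and 25.0% of the list against 27.8% and 28.5% of all genes. The list of mitochondrial transcription and messenger RNA stability held 6 genes. POLRMT, the mitochondrial RNA polymerase, was higher in U251 total RNA (1.00, SE 0.15, adjusted p = 6.7e-05) and in U343 RIPSeq (0.43, SE 0.09, adjusted p = 0.00469). In U251 total RNA C14orf156 (−0.67, SE 0.15, adjusted p = 0.00155) and TFB2M (−0.38, SE 0.15, adjusted p = 0.0438) were lower. LRPPRC, which stabilizes mitochondrial messenger RNAs, was lower in U343 RIPSeq (−0.67, SE 0.09, adjusted p = 0.00043). None of the list passed in U343 total RNA.

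The cytosolic ribosomal protein genes were set beside the members as the other ribosome of the cell. In U251 total RNA 66 of 75 tested were lower and 1 was higher, with a median of −0.92, against 28 and 9 of the members and 29.0% and 28.7% of all genes. In U343 RIPSeq 56 of 77 were lower and 1 higher, with a median of −0.44 (27.8% and 28.5% of all genes), and in U343 total RNA 7 of 77 were lower, with a median of −0.10 (11.7%). The difference between the lists was not tested.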

How the data were processed

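The series holds 16 libraries of 36-cycle reads, in 8 groups of 2 named by cell line, assay and transfection. The authors aligned reads to hg18 with RMAP and deposited raw counts per RefSeq gene, with the isoforms of a gene collapsed into 1 transcript model. The version of RMAP, the use of strand and the treatment of reads with several matches are not given in the sources used here. A symbol listed on 2 lines in the U251 tables, SLC35E2, was kept once.

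Counts were fitted over all genes with edgeR 4.0.16 in R 4.3.3 (TMM scaling, filterByExpr, quasi-likelihood F test), and genes were called at a Benjamini-Hochberg adjusted p under 0.05. Interactions were fitted over 8 libraries. Scripts were tested on simulated data. Fisher's exact tests used scipy 1.17.1. Alternatives were DESeq2 1.42.0, upper-quartile scaling, other filters (none, or a mean of at least 50 reads), a replicate block, a joint fit and leaving out each library. Depth ran from 10156675 to 45134766 counted reads per library, and each protein-coding member had at least 132 reads in each.

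Named genes were the 3 largest falls and 3 largest rises among called members with at least 50 reads and 1 direction in all pairs of libraries, members that met the pairwise rule, a set fixed by role, and the exceptions named as such. The members that changed in 3 experiments or passed an interaction are named for that reason, after their values were seen. The members and lists were chosen with earlier results of these data known. MRPS18B and MRPS36 were not analysed here.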

Additional observations from a re-analysis of the deposited data

Results flagged for a closer look

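In total RNA, 17 of the 75 genes responded to miR-137 unequally in U251 and U343 by the interaction term of the edgeR fit over 8 libraries. Values are the log2 fold change in U343 minus that in U251. The response was lower in U343 for MRPL12 (−1.28), MRPL2 (−1.0), MRPL16 (−0.94), MRPS25 (−0.82) and MRPL19 (−0.63). It was higher in U343 for MRPL3 (1.22), MRPL40 (1.13), MRPL33 (1.05), MRPS27 (1.00), MRPS10 (0.97), MRPL30 (0.85), MRPL37 (0.83), MRPL23 (0.77), MRPS15 (0.73), MRPL45 (0.64), MRPL9 (0.62) and MRPS16 (0.58). MRPS16 fell in both lines, and its difference no longer passed with upper-quartile scaling. The shares of all genes that passed were 12.7% lower and 12.5% higher, so passing this test is not read as a trait of the members. The counts in both directions moved when a single library was left out. The lines differ in cDNA kit, and the part of the kit in these differences cannot be told apart from that of the line.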

How the results depend on the processing

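Of 2484 values of named members under the alternatives, 2270 kept their direction and their side of the threshold, 88 lost and 115 gained significance, and 11 changed direction, all with a U251 RIPSeq control left out. The first value of each pair that follows is without U251 RIPSeq control replicate 1 and the second without replicate 2. The miR-137 difference in U251 RIPSeq became 0.22 and −1.12 for MRPL12, −0.34 and 1.04 for MRPL3, −0.17 and 0.33 for MRPL45, 0.24 and −0.16 for MRPS18A, −1.59 and 0.85 for MRPL42, and −0.42 and 0.50 for MRPS27. The PABP-bound to total ratio of MRPL42 became 0.43 and −1.93. The RIPSeq interaction with line became −0.78 and 0.64 for MRPL12, −0.35 and 0.25 for MRPL11, 0.58 and −1.78 for MRPL42, and 0.53 and −0.31 for MRPS27. Of 296 counts, 216 stayed within 1.5 times the main count. The others follow as counts of members alone, without the shares of all genes, and their causes were not tested.

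In U251 RNASeq the joint fit gave 9 members lower and 2 higher, upper-quartile scaling 16 higher and no filter 4 higher. In U251 RIPSeq the joint fit gave 8 lower and 3 higher, and DESeq2 1 higher. In U343 RNASeq DESeq2 gave 3 higher and the joint fit 4 higher, and in U343 RIPSeq the joint fit gave 5 higher. For PABP-bound against total RNA in U251, DESeq2 gave 1 lower and 4 higher and no filter 0 higher. DESeq2 gave 3 lower in the interaction with assay in U343 and 2 lower in the RIPSeq interaction with line. For the pairwise rule, an odds ratio over 1.5 gave 6 lower and 6 higher in U251 RNASeq, 2 and 6 in U251 RIPSeq, 7 and 1 in U343 RNASeq, and 19 and 3 in U343 RIPSeq. Totals scaled by TMM gave 3 lower in U251 RNASeq and 0 higher in U251 RIPSeq, and 3 of 4 pairs gave 2 lower in U251 RNASeq and 4 lower in U343 RIPSeq.

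With each library left out, counts lay between 4 and 11 higher in U251 RNASeq, 0 and 35 lower and 0 and 36 higher in U251 RIPSeq, 0 and 21 lower and 0 and 5 higher in U343 RNASeq, and 5 and 7 higher in U343 RIPSeq. For PABP-bound against total RNA they lay between 0 and 24 lower and 0 and 29 higher in U251, and 5 and 11 lower in U343. The interaction with assay ranged over 0 to 14 lower and 0 to 33 higher in U251, and 0 to 15 lower and 0 to 2 higher in U343. That with line ranged over 1 to 8 lower and 5 to 17 higher in RNASeq, and 0 to 32 lower and 0 to 11 higher in RIPSeq. Leaving libraries out of the interactions was chosen after seeing the data. The pairwise rule ranged over 1 to 4 lower and 1 to 2 higher in U251 RNASeq, 0 to 6 lower and 1 to 8 higher in U251 RIPSeq, and 2 to 7 lower in U343 RIPSeq.

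Replicate numbers are shared between groups, but nothing says that they mark a shared culture or day, and there are only 2 pairs, with correlations of deviations from −0.20 to 0.28. With the replicate block, 29 members were lower and 10 higher in U251 RNASeq, 1 was higher in U251 RIPSeq, 8 were lower in U343 RNASeq, 44 lower and 9 higher in U343 RIPSeq, and 2 lower and 3 higher for PABP-bound against total RNA in U251. For PABP-bound against total RNA in U343, the crossed pairing, chosen after seeing the data, gave 11 lower and 40 higher, against 10 and 35 with the replicate block. In U343 RNASeq the 8 lower members compare with 15 in the main fit. All these counts are given without the shares of all genes and are not read as a trait of the members.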

Other observations

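The head-to-head genes MRPL46 and MRPS11 were never both called in the same experiment, so the directions of their calls cannot be compared. MRPL46 was higher in U251 total RNA (0.38), where MRPS11 was at −0.22 and did not pass. MRPS11 was lower in U343 RIPSeq (−0.32), where MRPL46 was at 0.05 and did not pass.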
